A study of Mus musculus with 12 samples.

Results

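TCRBV02-01 and TCRBV05-01 are V gene segments of the mouse T-cell receptor β (TCRβ) locus, and their use was followed in sorted CD8 T cells from tumor-bearing mice. All rearrangements that the deposited tables assign to either gene were taken, each gene apart. There were 10746 rearrangements of TCRBV02-01 and 14919 of TCRBV05-01, summed over the libraries, among 288925 in all. The 12 libraries came from female C57BL/6 mice with MC38 tumors, a transplantable colon adenocarcinoma line, and all mice were given both anti-CTLA-4 Ab and anti-PD-L1 Ab. From the spleen came a CD27loCX3CR1lo, a CD27hiCX3CR1lo and a CX3CR1hi subset of CD8 T cells, and from the tumor CD8 TILs (tumor-infiltrating lymphocytes). These 4 groups were sampled once per experiment, and the 3 experiments are called A, B and C. The labels write CX3CR1lo and CX3CR1hi where the study writes CX3CR1-negative and -positive. No library came from an untreated or tumor-free mouse, so nothing below compares therapy with no therapy. Splenic subsets were sorted by flow cytometry, CD8 TILs were enriched on CD8, and the libraries of an experiment came from the same mice, taken as pools, at a single time after the start of therapy. The ages of the mice are not given in the labels.

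A TCRβ chain is built by joining 1 V, 1 D and 1 J segment in a developing T cell. Enzymes trim the segment ends and add untemplated bases (N insertions) between them. The resulting loop, CDR3, is the part of the chain that lies over the antigen peptide, while the V segment carries the loops that mostly touch the presenting MHC molecule. A join in the reading frame is productive and can be selected on the cell surface. An out-of-frame join makes no receptor and is carried along by a cell whose other allele is productive, so out-of-frame rearrangements are commonly read as a record of V gene use before selection. After an encounter with antigen a T cell multiplies, and all its daughters share 1 rearrangement. CX3CR1, a chemokine receptor, marks antigen-experienced effector cells, and CD27 is a costimulatory receptor that falls with effector differentiation.

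Because the assay read genomic DNA, a template stands for a rearranged gene copy, and the amount of RNA in a cell does not enter. Use was measured per gene and library in 2 ways. The share of unique rearrangements counts every distinct nucleotide sequence once, and the share of templates weights each sequence by its copies. The libraries held 5893 to 113660 productive templates in 1359 to 54639 unique productive rearrangements, and 627 to 21134 unique out-of-frame ones. CD8 TIL libraries were the smallest. Confidence intervals are 95% Wilson intervals of a share and cover counting error only. A count of 3 templates, the floor for a sequence that was not seen, corresponds to 0.00264% to 0.0509% of the productive templates of a library. The sequences carry no measure of CD8, CD27 or CX3CR1, so the purity of the sorts could not be checked here.

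In RefSeq (GRCm38.p6, which is the mm10 build the labels name), TCRBV02-01 corresponds to Trbv2, a V segment at chr6:41047556-41047995. TCRBV05-01 corresponds to Trbv5, a V segment at chr6:41062359-41062803. They are the second and the fifth of 35 Trbv entries along chromosome 6. The sequenced stretch covers the 3′ end of the V exon, the join and part of the J segment. The ends of both genes are shown because they fix what each contributes to CDR3. They were read from rearrangements without any trimming of V, productive or not, of which there were 6225 for TCRBV02-01 and 5465 for TCRBV05-01. The lower case part precedes CDR3, and capitals mark the germline part of CDR3, starting at the conserved cysteine codon.
TCRBV02-01: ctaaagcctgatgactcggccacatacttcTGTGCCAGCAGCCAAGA
TCRBV05-01: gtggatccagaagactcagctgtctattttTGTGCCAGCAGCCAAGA
The 17 bases inside CDR3 were the same in both genes, and 98.8% and 98.4% of the untrimmed rearrangements held them. The genes differ in the framework bases before the cysteine, so a CDR3 taken alone does not tell them apart.

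The sequences of the largest productive clones are given next, since the template results turn on them. A clone here is 1 nucleotide rearrangement. Each is printed from the cysteine codon to the codon before the end of CDR3, with V and J bases in lower case and the junction (D and inserted bases) in capitals. For TCRBV05-01, the most abundant clone of each CX3CR1hi and CD8 TIL library, and both clones found in these groups in all 3 experiments, were as follows.
CX3CR1hi A, TCRBJ02-03: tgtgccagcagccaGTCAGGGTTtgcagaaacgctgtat
CX3CR1hi B and CD8 TILs B, TCRBJ01-03: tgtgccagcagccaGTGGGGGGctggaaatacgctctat
CX3CR1hi C, TCRBJ02-07: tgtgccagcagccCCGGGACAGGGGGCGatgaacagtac
CD8 TILs A, TCRBJ02-01: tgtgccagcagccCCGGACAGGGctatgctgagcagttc
CD8 TILs C, TCRBJ02-01: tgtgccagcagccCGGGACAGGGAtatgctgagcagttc
All 3 experiments, TCRBJ02-01: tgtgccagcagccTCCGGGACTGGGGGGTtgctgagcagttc
All 3 experiments, TCRBJ01-02: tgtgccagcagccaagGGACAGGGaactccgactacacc
For TCRBV02-01, the most abundant clones were these.
CX3CR1hi A, TCRBJ01-04: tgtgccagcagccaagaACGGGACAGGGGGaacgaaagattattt
CX3CR1hi B, TCRBJ02-05: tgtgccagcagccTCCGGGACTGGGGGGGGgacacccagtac
CX3CR1hi C and CD8 TILs C, TCRBJ02-07: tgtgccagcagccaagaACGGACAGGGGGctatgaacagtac
CD8 TILs A, TCRBJ01-05: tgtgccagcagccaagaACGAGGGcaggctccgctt
CD8 TILs B, TCRBJ02-07: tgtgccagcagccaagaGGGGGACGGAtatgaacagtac
All 7 TCRBV05-01 clones had lost between 1 and 4 bases of the V end, whereas 4 of the 5 TCRBV02-01 clones kept all of it.

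The first comparison asked whether either V gene took a different part of the repertoire in the CX3CR1hi and tumor populations. Counted as unique productive rearrangements, TCRBV05-01 was more frequent there, and TCRBV02-01 did not pass the test. TCRBV05-01 made up 4.68%, 4.86% and 5.04% of unique productive rearrangements in CD27loCX3CR1lo cells of experiments A, B and C. The shares were 4.68%, 4.52% and 4.74% in CD27hiCX3CR1lo cells, 5.45%, 5.48% and 5.085% in CX3CR1hi cells, and 6.92%, 6.33% and 5.43% in CD8 TILs. All 6 libraries of CX3CR1hi cells and CD8 TILs lay above all 6 CX3CR1lo libraries, but the gap between the nearest of them (5.085% against 5.036%) was small. Both of those libraries came from experiment C. TCRBV05-01 ranked 9th to 11th among the V genes of the splenic libraries and 4th, 6th and 9th in CD8 TILs of A, B and C.

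In edgeR's quasi-likelihood test, the share of TCRBV05-01 was 1.28-fold higher in CD8 TILs than in the CX3CR1lo subsets (log2 difference 0.36 ± 0.10 SE, adjusted p = 0.0112, n = 3 per group). Of 24 V genes tested, 12.5% were called in this contrast. CX3CR1hi cells were 0.15 ± 0.05 above the CX3CR1lo subsets on the log2 scale, which did not pass the edgeR test (adjusted p = 0.115), and 4.17% of V genes were called. With CX3CR1hi cells and CD8 TILs as one set, the difference was 0.25 ± 0.06 (edgeR, adjusted p = 0.0017, 16.7% of V genes called). A two-sided exact permutation test within experiments gave a difference of 1.03 percentage points (p = 0.00926, the smallest that the arrangements can give, and 0.0185 adjusted over both genes). The difference between CD8 TILs and CX3CR1hi cells did not pass the test (0.21 ± 0.11, edgeR adjusted p = 0.333, 4.17% called). Leaving out experiment A or B ended the CD8 TIL call (0.27, edgeR adjusted p = 0.134, and 0.33, adjusted p = 0.146), and leaving out B ended that of both groups together (0.23, adjusted p = 0.0555). In contrast, CX3CR1hi cells alone passed the edgeR test without experiment C (0.22, adjusted p = 0.0213).

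TCRBV02-01 made up 3.50%, 3.84% and 3.77% of unique productive rearrangements in CD27loCX3CR1lo cells and 3.37%, 3.55% and 3.41% in CD27hiCX3CR1lo cells. The shares were 3.47%, 3.27% and 3.45% in CX3CR1hi cells and 5.08%, 2.97% and 3.13% in CD8 TILs. CD8 TILs of experiment A stood above all other libraries, although that library held only 69 TCRBV02-01 rearrangements of 1359 (Wilson interval, 4.03% to 6.38%). The CD8 TIL mean of 3.73% ± 1.17 (SD, n = 3) was within 1 SD of each splenic mean. The log2 differences from the CX3CR1lo subsets were −0.06 ± 0.07 in CX3CR1hi cells (edgeR, adjusted p = 0.763) and 0.01 ± 0.14 in CD8 TILs (adjusted p = 0.940). CD27loCX3CR1lo and CD27hiCX3CR1lo cells differed by 0.11 ± 0.06 for TCRBV02-01 (edgeR, adjusted p = 0.320) and by 0.07 ± 0.05 for TCRBV05-01 (adjusted p = 0.555). In that contrast 0% of V genes were called by edgeR and 0 by DESeq2, with 3 at an unadjusted p under 0.05.

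**Figure D1:**
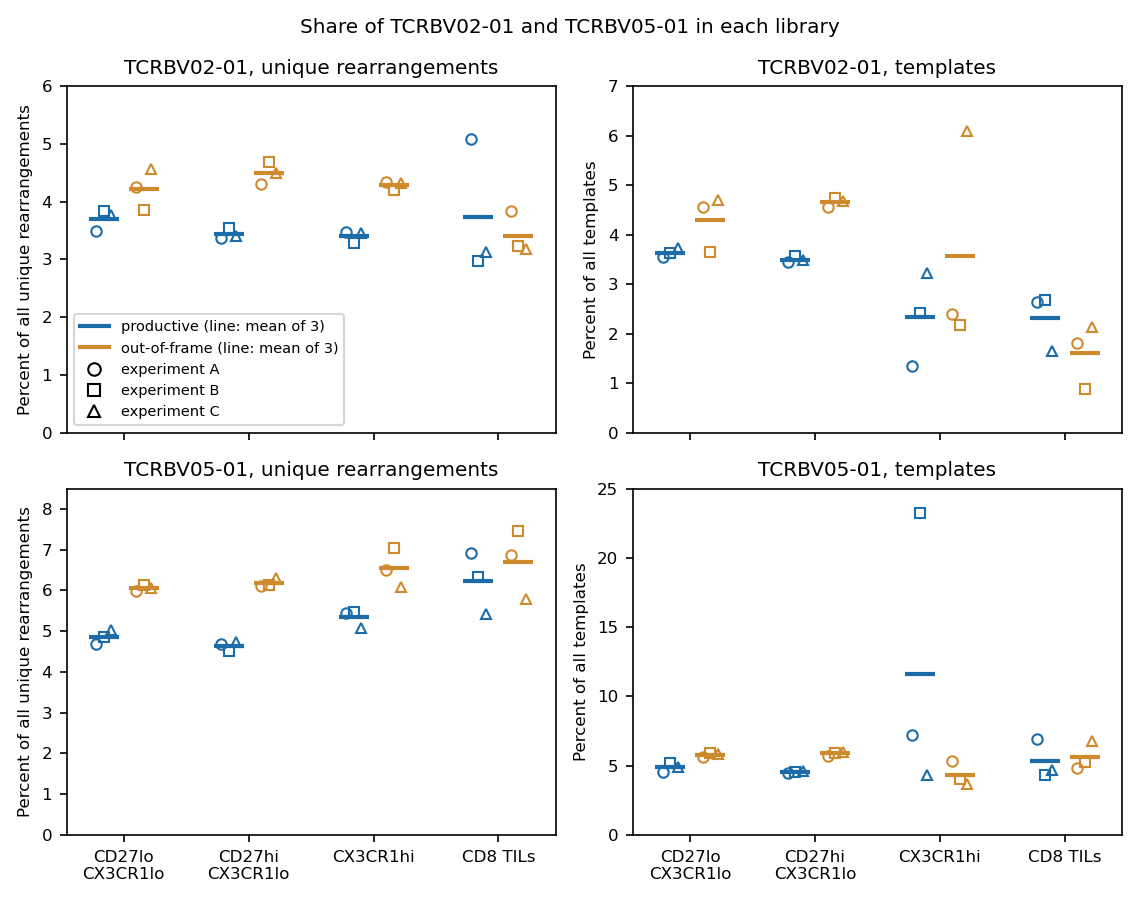
Share of TCRBV02-01 (top) and TCRBV05-01 (bottom) in each library, as a percent of unique rearrangements (left) or templates (right), by group; symbols are experiments A, B and C, lines are means of 3, and productive and out-of-frame rearrangements are coloured apart. The 6 CX3CR1hi and CD8 TIL values for unique productive TCRBV05-01 lie above the 6 CX3CR1lo values, and 1 CX3CR1hi library reaches 23.2% of productive templates.

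Weighted by templates, neither gene passed the edgeR test in CX3CR1hi cells. TCRBV02-01 made up 3.55%, 3.64% and 3.72% of productive templates in CD27loCX3CR1lo cells of A, B and C, and 3.44%, 3.56% and 3.49% in CD27hiCX3CR1lo cells. It made up 1.34%, 2.41% and 3.23% in CX3CR1hi cells and 2.63%, 2.68% and 1.65% in CD8 TILs. All 6 CX3CR1hi and CD8 TIL values lay below all 6 CX3CR1lo values. Fitted with edgeR, the difference of both groups together was −0.63 ± 0.26 on the log2 scale and missed the threshold (adjusted p = 0.099), with 29.2% of V genes called (1 higher and 6 lower). The exact permutation test of the percentages within experiments gave −1.24 percentage points (p = 0.00926, 0.0185 adjusted over both genes). The median V gene had a log2 difference of −0.41 in the same contrast, so much of the size for TCRBV02-01 was common to V genes in general. Taken apart, CX3CR1hi cells were at −0.64 ± 0.33 (edgeR, adjusted p = 0.185) and CD8 TILs at −0.62 ± 0.33 (adjusted p = 0.207).

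TCRBV05-01 held 4.55%, 5.19% and 4.90% of productive templates in CD27loCX3CR1lo cells and 4.51%, 4.56% and 4.61% in CD27hiCX3CR1lo cells. It held 7.25%, 23.2% and 4.32% in CX3CR1hi cells, and 6.96%, 4.30% and 4.70% in CD8 TILs. The groups overlapped, since CX3CR1hi cells of C and CD8 TILs of B lay below all CX3CR1lo libraries. In experiment B, TCRBV05-01 was the most abundant V gene of the CX3CR1hi library. The log2 difference of CX3CR1hi cells from the CX3CR1lo subsets was 1.12 ± 0.42 (edgeR, adjusted p = 0.185). In this contrast 0% of V genes were called by edgeR, with 4 at an unadjusted p under 0.05, and DESeq2 called 4, TCRBV05-01 among them (1.51, DESeq2 adjusted p = 0.0115). The DESeq2 value is relative to the typical V gene and is not a difference of share. In the edgeR fit the median V gene was at −0.38. TCRBV05-01 also passed the edgeR test without experiment C (1.63, adjusted p = 0.0019) and fell to 0.28 without experiment B (adjusted p = 0.628). CD8 TILs differed from the CX3CR1lo subsets by 0.19 ± 0.41 (edgeR, adjusted p = 0.751, 20.8% of V genes called). CD8 TILs and CX3CR1hi cells differed by −0.93 ± 0.50 for TCRBV05-01 (edgeR, adjusted p = 0.270) and by 0.02 ± 0.38 for TCRBV02-01 (adjusted p = 0.954), with 12.5% called. The CX3CR1lo subsets differed by at most 0.09 for either gene (edgeR, adjusted p = 0.996 for both). There 0% were called, 0 reached an unadjusted p under 0.05, and DESeq2 called 0.

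The value of 23.2% rested on 1 clone. The TCRBV05-01 and TCRBJ01-03 clone of CX3CR1hi B had 8948 templates, 17.6% of that library's productive templates (rank 1). In the same experiment it had 179 templates in CD8 TILs (1.45%, rank 17), 78 in CD27loCX3CR1lo cells (0.429%, rank 1) and 93 in CD27hiCX3CR1lo cells (0.189%, rank 1). It was not found in any library of A or C. Thus, the largest productive clone of both CX3CR1lo libraries of B was the clone that led the CX3CR1hi library, and whether carry-over between sorted fractions contributed was not tested. Without this clone, TCRBV05-01 made up 6.90% of the productive templates of CX3CR1hi B and 2.90% of CD8 TILs B, and the CX3CR1hi difference became 0.40 ± 0.29 (edgeR, adjusted p = 0.335). TCRBV02-01 then made up 2.93% of CX3CR1hi B, still below each CX3CR1lo library.

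Out-of-frame rearrangements gave the use of both genes without selection on the receptor. TCRBV02-01 took 4.25%, 3.86% and 4.56% of unique out-of-frame rearrangements in CD27loCX3CR1lo cells, 4.30%, 4.68% and 4.49% in CD27hiCX3CR1lo cells, 4.34%, 4.21% and 4.32% in CX3CR1hi cells and 3.83%, 3.22% and 3.18% in CD8 TILs. All 3 CD8 TIL values lay below the 9 splenic ones. The log2 difference of CD8 TILs from the CX3CR1lo subsets was −0.38 ± 0.16 (edgeR, adjusted p = 0.156). For TCRBV05-01 the shares were 5.98%, 6.14% and 6.07% in CD27loCX3CR1lo cells, 6.11%, 6.14% and 6.30% in CD27hiCX3CR1lo cells, 6.50%, 7.05% and 6.09% in CX3CR1hi cells, and 6.86%, 7.47% and 5.79% in CD8 TILs. These groups overlapped, and the difference of CX3CR1hi cells and CD8 TILs together was 0.09 ± 0.07 (edgeR, adjusted p = 0.777). The differences of CD8 TILs and of CX3CR1hi cells from the CX3CR1lo subsets were 0.10 ± 0.12 (edgeR, adjusted p = 0.617) and 0.08 ± 0.07 (adjusted p = 0.887) for TCRBV05-01.

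Across the 25 V genes in these out-of-frame fits, edgeR called 0% for CX3CR1hi cells, 0% for CD8 TILs, 0% for CD8 TILs against CX3CR1hi cells and 0% between the CX3CR1lo subsets. At an unadjusted p under 0.05 there were 2, 3, 2 and 1, and DESeq2 called 0 in each. With CX3CR1hi cells and CD8 TILs together, 4% were called, which was neither member. Therefore, the higher unique share of TCRBV05-01 was called among productive rearrangements only, but the productive to out-of-frame ratio itself did not pass a test of its difference between groups. That difference was 0.26 ± 0.10 for CD8 TILs against the CX3CR1lo subsets (edgeR, adjusted p = 0.302) and 0.08 ± 0.06 for CX3CR1hi cells (adjusted p = 0.898). For TCRBV02-01 the same differences were 0.39 ± 0.17 (edgeR, adjusted p = 0.238) and −0.04 ± 0.08 (adjusted p = 0.959). CD8 TILs against CX3CR1hi cells gave 0.43 ± 0.18 for TCRBV02-01 (edgeR, adjusted p = 0.333) and 0.18 ± 0.11 for TCRBV05-01 (adjusted p = 0.644). For these 3 contrasts edgeR called 0%, 0% and 0% of V genes, with 2, 5 and 3 at an unadjusted p under 0.05 (CX3CR1hi cells, CD8 TILs, and the pair), and DESeq2 called 0, 1 and 0.

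Within libraries, both genes were less frequent among productive than among out-of-frame rearrangements. The ratio of the shares was 0.880 ± 0.163 (SD, n = 12) for TCRBV02-01 and was below 1 in 11 of 12 libraries, with 1.33 in CD8 TILs of A. For TCRBV05-01 it was 0.825 ± 0.079 and was below 1 in 11 of 12 libraries, with 1.01 in CD8 TILs of A. In the fit over all V genes, the log2 ratio was −0.20 ± 0.05 for TCRBV02-01 (edgeR, adjusted p = 0.0012) and −0.28 ± 0.03 for TCRBV05-01 (adjusted p = 4.99e-07). Neither call held when at least 2 templates were required (−0.18, edgeR adjusted p = 0.0657, and −0.14, adjusted p = 0.0652). Such differences were the rule, since 91.7% of V genes were called, 10 higher and 12 lower. TCRBV05-01 and TCRBV02-01 were the 9th and 11th lowest of the 24, far from the 3 lowest, all under −2. Of the TCRBV02-01 rearrangements that were either productive or out-of-frame, 67.95% ± 2.60 (SD, n = 12) were productive, and for TCRBV05-01 66.8% ± 1.0. For the remaining V genes these values were 71.1% ± 1.7 and 71.2% ± 1.7.

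**Figure D2:**
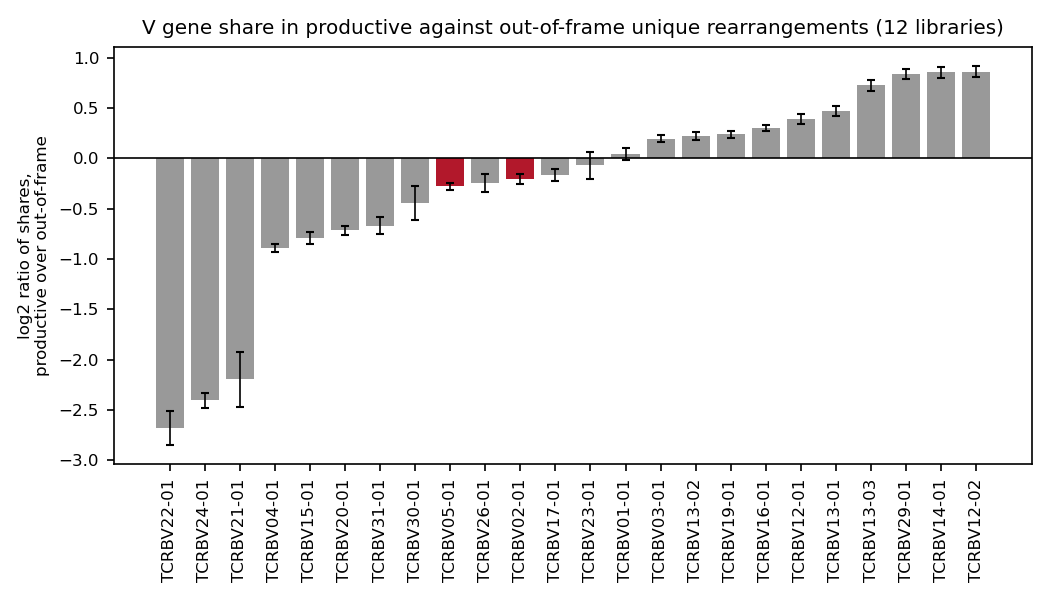
Log2 ratio of each V gene's share in unique productive over unique out-of-frame rearrangements, fitted over 12 libraries with bars for the standard error; both members are in red. TCRBV05-01 (−0.28) and TCRBV02-01 (−0.20) lie below 0 and in the middle of the order.

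In out-of-frame templates single clones moved the shares as well. TCRBV02-01 held 2.40%, 2.17% and 6.09% of out-of-frame templates in CX3CR1hi cells of A, B and C and 1.82%, 0.874% and 2.13% in CD8 TILs. In CX3CR1hi C, 1 out-of-frame clone joined to TCRBJ01-02 had 2490 of the 3517 TCRBV02-01 templates (70.8%). Its sequence is shown for that reason, and it was picked after the values were seen.
TCRBV02-01 out-of-frame clone, experiment C: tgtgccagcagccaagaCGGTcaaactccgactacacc
It also led the TCRBV02-01 out-of-frame templates of the other libraries of C, with 70 in CD8 TILs (42.2%), 19 in CD27hiCX3CR1lo cells and 9 in CD27loCX3CR1lo cells, and was in no library of A or B. For TCRBV05-01, the largest out-of-frame clone held 23.9%, 26.4% and 25.3% of the gene's out-of-frame templates in CX3CR1hi cells and 25.6%, 53.8% and 70.1% in CD8 TILs. In CX3CR1lo libraries the largest held at most 2.45% for TCRBV02-01 and 2.12% for TCRBV05-01. Hence, the weight of large clones was present in rearrangements that encode no receptor.

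Expanded clones were defined as those with at least 0.1% of the productive templates of their library. TCRBV05-01 had 8, 3 and 5 of them in CX3CR1hi cells of A, B and C and 8, 7 and 8 in CD8 TILs. TCRBV02-01 had 0, 3 and 5, and 6, 5 and 3. Summed over the libraries these were 39 for TCRBV05-01 (4.96%) and 22 for TCRBV02-01 (2.80%), of 787 over all V genes. In these sums, and at the limits below, a clone was counted in each library that held it at that size. The numbers of distinct clones are therefore smaller. For neither gene did the share among expanded clones pass the test against the rest of the same libraries (log2 difference −0.24 ± 0.25, edgeR adjusted p = 0.457, for TCRBV05-01 and −0.40 ± 0.33, adjusted p = 0.359, for TCRBV02-01). In that fit 4.76% of the 21 V genes were called. The difference between CD8 TILs and CX3CR1hi cells was 0.46 ± 0.52 for TCRBV05-01 (edgeR, adjusted p = 0.620) and 0.85 ± 0.69 for TCRBV02-01 (adjusted p = 0.620), with 0% called, 1 at an unadjusted p under 0.05 and 0 by DESeq2. Many clones were near the limit. Between 0.1% and 0.2% there were 20 TCRBV05-01 and 12 TCRBV02-01 clones, and between 0.05% and 0.1% there were 40 and 29. At 1% or more, the count was 9 for TCRBV05-01 and 0 for TCRBV02-01. The TCRBV05-01 and TCRBJ01-03 clone of B entered this count in CX3CR1hi cells and again in CD8 TILs. Summed over the same libraries, there were 1588 unique productive rearrangements of TCRBV05-01 and 1009 of TCRBV02-01, of 29267 over all V genes. Clones of all V genes were not counted at these limits, and no difference between the genes was tested there. The lowest expanded clone of CD8 TILs A stood on 6 templates, so the limit was coarse in that library.

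In the CX3CR1lo libraries, TCRBV02-01 had no expanded clone, and TCRBV05-01 had 1 in each CX3CR1lo library of B, the clone described above. Expanded clones held 0%, 52.8% and 61.6% of TCRBV02-01 templates in CX3CR1hi cells of A, B and C and 35.5%, 75.0% and 41.7% in CD8 TILs. Only CX3CR1hi A lacked them. For TCRBV05-01 they held 74.55%, 91.7% and 42.55% in CX3CR1hi cells and 67.6%, 59.5% and 68.8% in CD8 TILs. Averaged over these 6 libraries, the share was 44.4% for TCRBV02-01 against 0% in the 6 CX3CR1lo libraries (exact permutation p = 0.0278, two-sided, within experiments). For TCRBV05-01 it was 67.5% against 2.07% (exact permutation p = 0.00926). The single largest clone held 22.5% of TCRBV02-01 templates against 0.829%, and 34.0% of TCRBV05-01 templates against 2.62% (exact permutation p = 0.00926 for each). Adjusted over these 4 tests, the largest p was 0.0278. The remaining V genes had the same pattern: expanded clones of the V genes other than TCRBV02-01 held 68.5% of their templates in the same 6 libraries against 0.697% in the CX3CR1lo libraries, and those of the V genes other than TCRBV05-01 held 66.9% against 0.597%. Over all V genes, a CX3CR1lo library held 0 to 8 expanded clones, and a CX3CR1hi or CD8 TIL library 115 to 144. A low value in the CX3CR1lo libraries was therefore largely set in advance for any V gene. The 4 tests restate how clonal the groups were and show nothing particular to either gene. Whether the size of the contrast differed between genes was not tested.

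**Figure D3:**
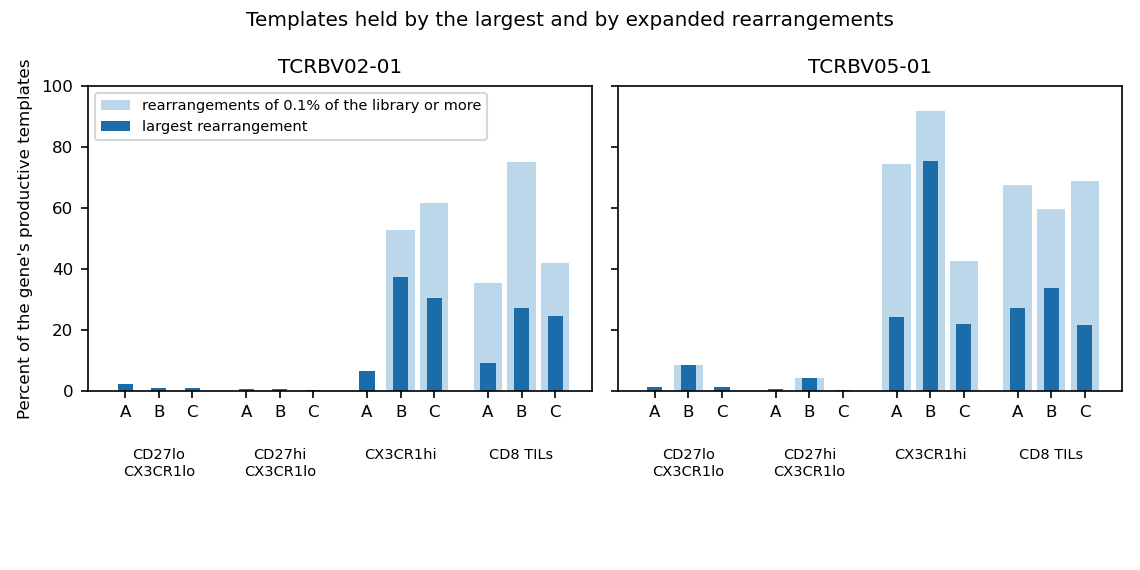
Percent of each gene's productive templates held by its largest rearrangement (dark) and by all rearrangements with at least 0.1% of the library (light), for each library, grouped by cell population and experiment. In CX3CR1hi A, TCRBV02-01 has no expanded rearrangement, while the largest TCRBV05-01 rearrangement of CX3CR1hi B holds most of the gene's templates.

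Templates per unique rearrangement varied between experiments, and no difference between the genes was tested. In CX3CR1hi cells TCRBV02-01 had 6.34 ± 3.16 templates per unique rearrangement (SD, n = 3) against 9.04 ± 1.00 for the other V genes, and TCRBV05-01 had 19.2 ± 17.0 against 8.36 ± 1.44. In CD8 TILs the values were 4.85 ± 2.49 against 7.42 ± 2.72 for TCRBV02-01 and 6.05 ± 2.06 against 7.41 ± 2.77 for TCRBV05-01. In CX3CR1lo libraries both genes stayed between 1.22 and 1.50. TCRBV05-01 had 10.4, 38.7 and 8.44 templates per rearrangement in CX3CR1hi cells of A, B and C, where the other V genes had 7.65, 7.41 and 10.0, so that it lay below them in C. Rearrangements seen as a single template made up 61.2% ± 4.1 of TCRBV05-01 in CX3CR1hi cells and 46.0% ± 7.1 in CD8 TILs (n = 3 each). The other V genes were at 55.7% ± 0.6 and 56.3% ± 1.9, so that TCRBV05-01 lay above them in the spleen and below them in the tumor, without a test of this difference.

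The clones with their sequences above were followed across libraries. Apart from the clone of B, the leading TCRBV05-01 clone of CX3CR1hi A had 979 templates (1.76%, rank 5), 6 in CD27loCX3CR1lo cells and 12 in CD27hiCX3CR1lo cells, and was not seen in CD8 TILs of A. That of CX3CR1hi C had 1079 templates (0.949%) and 33 in CD8 TILs of C (0.157%). The leading clone of CD8 TILs A had 111 templates (1.88%, rank 8) against 22 in CX3CR1hi cells, and that of CD8 TILs C had 212 (1.01%, rank 23) against 74. Both leading CD8 TIL clones, which join TCRBJ02-01 in different experiments, encode the same CDR3 amino acids. There were 4 nucleotide versions of this receptor chain, all with 4 bases of V removed, and the remaining 2 were as follows.
TCRBV05-01 version with TCRBJ02-01, mostly CX3CR1hi: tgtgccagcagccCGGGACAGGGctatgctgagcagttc
TCRBV05-01 version with TCRBJ02-01, mostly CD8 TILs A: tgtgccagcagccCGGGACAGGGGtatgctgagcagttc
The former had 168 templates in CX3CR1hi cells of A and 114 in those of C, with 2 to 7 in each CX3CR1lo library of these experiments and none in CD8 TILs. The latter had 97 in CD8 TILs of A (1.65%) and 1 in CD27loCX3CR1lo cells of A. The receptor chain was thus present in all 8 libraries of A and C and in none of B.

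Few rearrangements recurred between experiments. Among 1451 distinct TCRBV05-01 nucleotide rearrangements in CX3CR1hi cells and CD8 TILs, 21 were in at least 2 experiments and 2 were in all 3. Among 955 of TCRBV02-01 there were 7 and 0, and among 24713 of the other V genes 224 and 19. As V, J and CDR3 amino acids, 50 of 1349 TCRBV05-01 clonotypes (3.71%) and 19 of 922 TCRBV02-01 clonotypes (2.06%) were in at least 2 experiments, beside 2.83% for the other V genes. These shares also depend on depth and were not tested. Of both TCRBV05-01 clones in all 3 experiments, the TCRBJ02-01 clone was large in CX3CR1hi B alone (433 templates, 0.849%) and had between 1 and 9 templates in the other 6 libraries that held it. The TCRBJ01-02 clone had no N insertion and 61 templates in CX3CR1hi C, 6 in A and 2 in B.

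The leading TCRBV02-01 clone of experiment C had 1112 templates in CX3CR1hi cells (0.978%, rank 9) and 85 in CD8 TILs (0.406%), where it led too. The leading clone of CX3CR1hi B had 458 templates (0.898%) and 4 in CD8 TILs, whereas that of CD8 TILs B had 90 (0.727%) and 20 in CX3CR1hi cells. In experiment A, the leading clone of CX3CR1hi cells had 48 templates (0.0861%, rank 162) and that of CD8 TILs 14 (0.238%), and each was seen in its own library only. Experiment A, where the leading CX3CR1hi clone lay just under the 0.1% limit, also had the lowest TCRBV02-01 share of CX3CR1hi templates. Expanded clones are part of that share, and a link was not tested.

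Sharing between tumor and CX3CR1hi cells of the same experiment differed between experiments for both genes. For TCRBV05-01, 39.8%, 74.1% and 90.9% of CD8 TIL templates in A, B and C belonged to rearrangements also found in CX3CR1hi cells. For TCRBV02-01 the values were 10.3%, 87.4% and 78.8%, and for the other V genes 67.3%, 86.1% and 85.6%. Both members were below the other V genes in experiment A, which had the shallowest CD8 TIL library. Expanded clones were counted in each experiment apart and summed. Of 23 expanded TCRBV05-01 clones in CD8 TILs, 17 were found in CX3CR1hi cells. The same held for 9 of 14 for TCRBV02-01 and 281 of 337 for the other V genes. In the opposite direction, 6 of 16 expanded TCRBV05-01 clones of CX3CR1hi cells, 7 of 8 of TCRBV02-01 and 225 of 389 of the others were found in CD8 TILs. In the CX3CR1lo subsets, TCRBV05-01 rearrangements also found in CD8 TILs made up 0.576% to 9.22% of the gene's templates, the highest in CD27loCX3CR1lo cells of B, where the dominant clone lay.

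J segments form the end of CDR3, and their choice was examined as unique productive rearrangements. Both genes most often joined TCRBJ02-07, at 23.5% ± 4.7 (SD, n = 12 libraries) for TCRBV02-01 and 24.9% ± 3.3 for TCRBV05-01. TCRBJ02-01 came second, with 10.4% ± 3.2 and 14.0% ± 1.8. The next was TCRBJ02-05 for TCRBV02-01 (9.60% ± 2.13) and TCRBJ01-01 for TCRBV05-01 (11.6% ± 2.4). Compared with the other V genes of the same libraries, TCRBV05-01 was set apart by TCRBJ01-02. That J segment was used by 3.47% ± 0.87 of TCRBV05-01 rearrangements against 6.79% ± 0.59 of the others (log2 difference −0.91 ± 0.06, edgeR adjusted p = 1.34e-18). Next were TCRBJ01-03 (−0.28 ± 0.07, edgeR adjusted p = 3.26e-04) and TCRBJ02-04 (−0.27 ± 0.06, adjusted p = 4.99e-05). In this comparison 66.7% of the 12 J segments were called, 4 higher and 4 lower. Among out-of-frame rearrangements, TCRBJ01-02 made up 6.09% ± 1.51 of TCRBV05-01 and 9.37% ± 3.95 of TCRBV02-01. Whether out-of-frame TCRBV05-01 differed in this from the out-of-frame rearrangements of other V genes was not tested.

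Set against its own out-of-frame rearrangements, productive TCRBV05-01 used TCRBJ01-02 less (−0.76 ± 0.11, edgeR adjusted p = 2.91e-09), and likewise TCRBJ01-03 (−0.47 ± 0.11, adjusted p = 1.56e-04). TCRBJ02-04 was lower as well (−0.43 ± 0.10, edgeR adjusted p = 6.79e-05), and 75% of J segments were called. TCRBJ02-01 and TCRBJ02-07 were higher by 0.35 ± 0.07 and 0.33 ± 0.05 (edgeR, adjusted p = 1.48e-05 and 1.01e-07). For TCRBV02-01, productive rearrangements used TCRBJ01-03 less (−0.56 ± 0.13, edgeR adjusted p = 1.46e-04) and TCRBJ02-07 more (0.45 ± 0.07, adjusted p = 3.81e-08) than out-of-frame ones. TCRBJ01-06 was also lower (−0.47 ± 0.16, edgeR adjusted p = 0.0085), and 50% of J segments were called. Against the other V genes, the differences of TCRBV02-01 were smaller, at 0.31 ± 0.10 for TCRBJ01-05 and 0.25 ± 0.08 for TCRBJ01-04 (edgeR, adjusted p = 0.0105 for both), and 33.3% were called. TCRBJ01-02 was higher by 0.21 ± 0.08 (edgeR, adjusted p = 0.0215), the opposite direction to TCRBV05-01. These calls on TCRBV02-01 were not stable, as DESeq2 made 0 and edgeR made 1 without experiment B and 0 without experiment C. The fits weigh libraries by their counts, so the deep CD27hiCX3CR1lo libraries counted most, whereas the means weigh libraries equally. The fits also treat libraries of an experiment as independent, although these share mice, so their p-values can be too small.

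**Figure D4:**
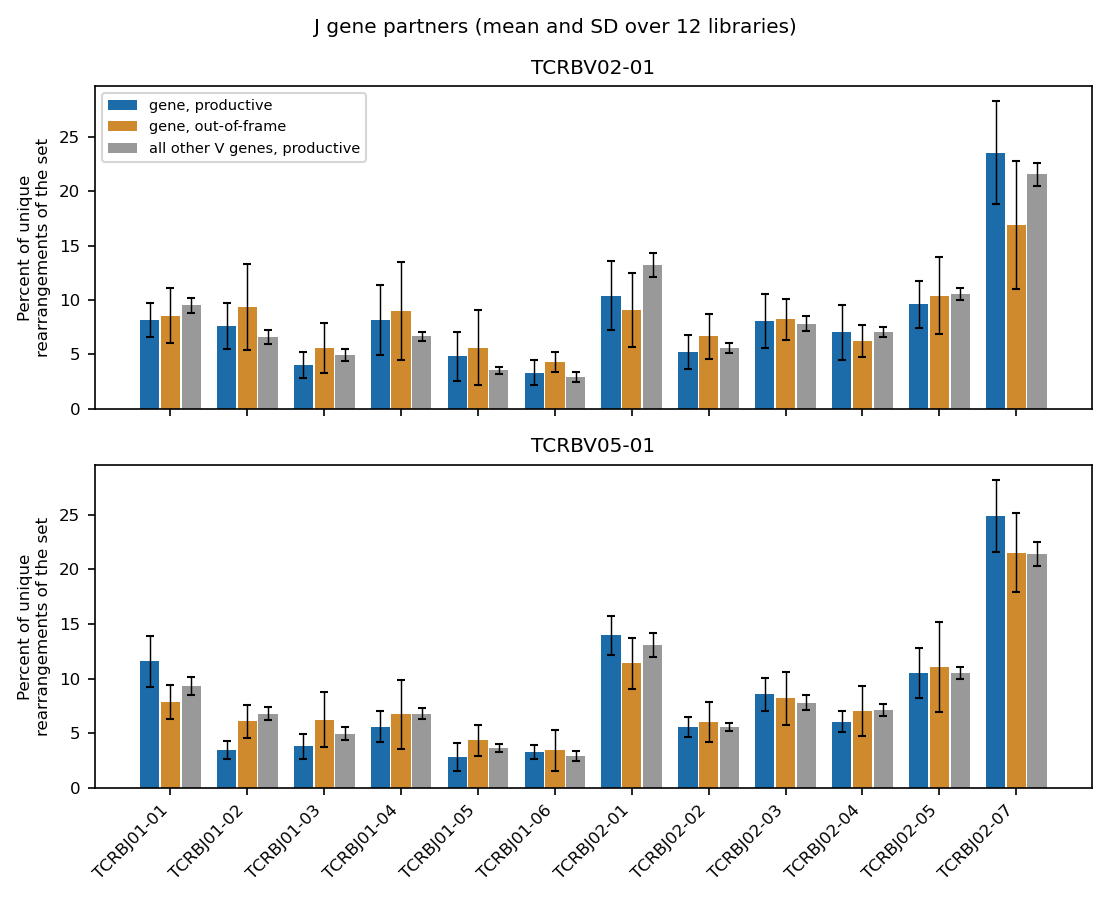
Percent of unique rearrangements that use each J segment (mean and SD of 12 libraries), for productive and out-of-frame rearrangements of the gene and for productive rearrangements of all other V genes. For TCRBV05-01, TCRBJ01-02 is at 3.47% among productive rearrangements, 6.09% among its out-of-frame ones and 6.79% among other V genes.

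Although both genes bring the same 17 bases to CDR3, they were trimmed differently. TCRBV02-01 lost 1.17 ± 0.08 bases of the V end on average (SD, n = 12) and TCRBV05-01 2.07 ± 0.18, beside 2.69 ± 0.04 for V genes other than TCRBV05-01. The difference between both genes was 0.897 ± 0.214 bases and had the same sign in 12 of 12 libraries. In TCRBV02-01, 60.0% ± 3.9 of unique productive rearrangements kept the whole V end, as against 34.6% ± 4.0 in TCRBV05-01. TCRBV05-01 instead had a second peak at exactly 4 removed bases, which 27.4% ± 3.5 of its rearrangements had lost, compared with 9.27% ± 2.66 in TCRBV02-01. Out-of-frame rearrangements showed this as well, with 22.0% ± 3.6 for TCRBV05-01 and 10.5% ± 2.7 for TCRBV02-01. Of the TCRBV05-01 clones printed above, those starting with tgtgccagcagcc directly before the capitals have lost these 4 bases. CDR3 was longer than that of the other V genes by 2.15 ± 0.31 bases for TCRBV02-01 and by 1.56 ± 0.49 for TCRBV05-01, in 12 of 12 libraries each.

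Between groups, the trimming of TCRBV05-01 was 1.91 ± 0.10 bases in CD27loCX3CR1lo cells, 1.98 ± 0.05 in CD27hiCX3CR1lo cells, 2.12 ± 0.09 in CX3CR1hi cells and 2.27 ± 0.22 in CD8 TILs (SD, n = 3 each). The 6 CX3CR1hi and CD8 TIL libraries (2.03 to 2.50) did not overlap the 6 CX3CR1lo libraries (1.80 to 2.02). The difference of 0.253 bases gave p = 0.00926 by exact permutation with the block, and 0.0556 adjusted over the 6 tests of this family. Both are the lowest values that a lone result among 6 tests can reach in this design. Without the replicate block it passed (exact permutation p = 0.0022, 0.0130 adjusted). Out-of-frame TCRBV05-01 rearrangements had 2.06, 1.99, 2.51 and 2.59 bases removed in the same order of groups. The other V genes had 2.64, 2.68, 2.71 and 2.74, the same order in a narrower range. Out of frame, a CD8 TIL library held only 43 to 60 TCRBV05-01 rearrangements, and other bins moved. Exactly 4 bases were lost by 24.4%, 26%, 28.7% and 30.3% of productive TCRBV05-01 rearrangements. Out of frame the values were 22.8%, 23%, 23.9% and 18.3%. There, 6 or more bases were lost by 3.82%, 3.88%, 7.05% and 9.38%. These bins were not tested. For TCRBV02-01, trimming was 1.14 bases in the CX3CR1lo libraries and 1.20 in the others (exact permutation p = 0.287). CDR3 length differed between these sets of libraries by −0.195 bases for TCRBV02-01 (exact permutation p = 0.259) and by −0.436 for TCRBV05-01 (exact permutation p = 0.0833). N insertions differed by −0.0042 and −0.0185 bases (exact permutation p = 0.972 and 0.676).

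**Figure D5:**
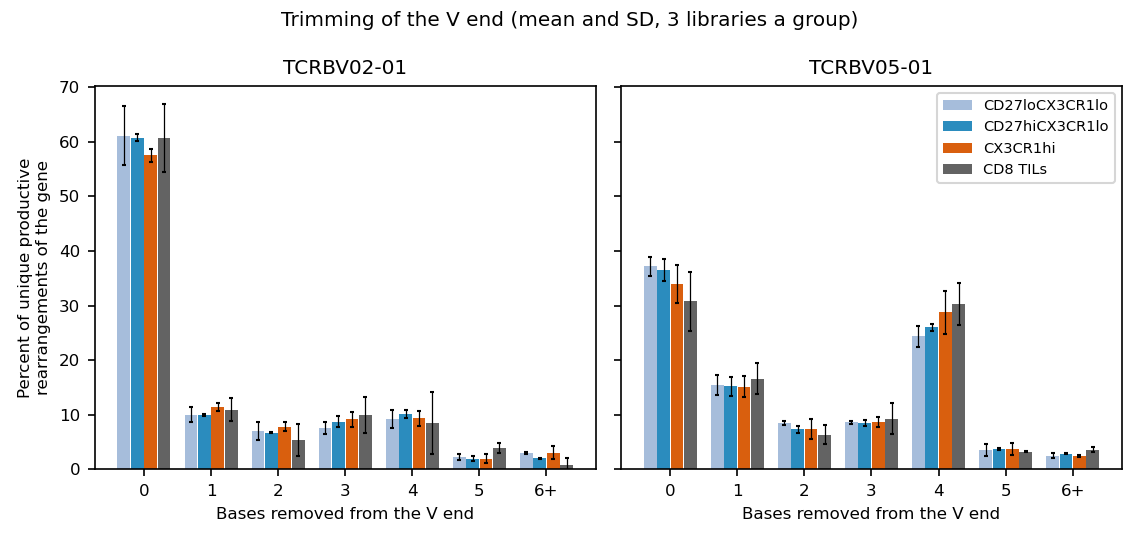
Percent of unique productive rearrangements of each gene by the number of bases removed from the V end (6+ means 6 or more), as mean and SD of 3 libraries per group. TCRBV02-01 is mostly untrimmed, and TCRBV05-01 has a second peak at 4 bases in all 4 groups.

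Finally, the V genes with the most similar course over the 12 libraries were sought by Pearson correlation of the log2 percent of productive templates, among 22 other V genes. For TCRBV02-01 they were TCRBV24-01 (r = 0.781), TCRBV14-01 (r = 0.738) and TCRBV15-01 (r = 0.688). For TCRBV05-01 the highest values were low, at 0.357 for TCRBV03-01, 0.322 for TCRBV01-01 and 0.231 for TCRBV30-01. Between both members r was −0.339. These are descriptions without a test, because shares of one library sum to a whole, the libraries fall into 4 groups, and a large clone of 1 gene lowers the share of every other gene.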

How the data were processed

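The authors amplified TCRβ rearrangements from genomic DNA with the ImmunoSEQ kit (survey level), read them on a NextSeq500, and used the ImmunoSEQ platform for processing. The caller of V, D and J genes and its version are not given in the sources used here. The deposited tables give 1 row per rearrangement with a whole-number template count, which was used without normalization. It equals the file's estimate of genomes in every row. The fraction column of the deposited tables was not used. All deposited sequences were 87 bases long. The build named by the labels is mm10. CDR3 length, V deletions and the sum of both N insertion columns were used as the authors deposited them. Rows without a named V gene (0 to 11 per library, at most 0.068%) were left out, and no row listed a member among tied V genes, so that ties changed nothing.

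Unique rearrangements and templates were summed per V gene, library and reading frame. Shares were compared with edgeR 4.0.16 (quasi-likelihood, common dispersion, library totals as size, genes with a mean of at least 10 counts) and Benjamini-Hochberg adjustment over all V or J genes, at a threshold of 0.05, in R 4.3.3. In comparisons between groups the experiment was a block, since libraries of an experiment share mice. In the fits of productive against out-of-frame rearrangements, of expanded clones and of J segments, the library was the block. Deviations from group means of same-experiment libraries correlated with a mean r of 0.049 over 18 pairs (−0.465 to 0.526). Single values were tested by exact permutation within experiments (two-sided). A contrast of CX3CR1hi cells and CD8 TILs together was added to match that test. The groups of an experiment came from the same pool of mice. The p-values of the fits with the library as block treat libraries as independent, although those of an experiment share mice. They therefore do not measure the spread between pools of mice.

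The fits were tested on simulated counts. Alternatives were DESeq2 1.42.0, TMM factors, no filter, no block, at least 2 templates, amino acid clonotypes, clone limits of 0.05% and 0.5%, stop codons added to the background, and the largest clones or each experiment left out. DESeq2 and TMM factors scale libraries by their typical gene rather than by library totals, so their values are not differences of share. Python 3.11.15, pandas 2.3.3, numpy 2.4.6, scipy 1.17.1 and matplotlib 3.10.9 were used. Members, lists and tests were chosen with earlier results of these data known. J segments named were the 3 most used and up to 3 with the largest differences per comparison that passed the test. Clones named were the most abundant of each gene in each CX3CR1hi and CD8 TIL library and those in these groups of all 3 experiments. Gene positions are from RefSeq, and the sequences printed are from the deposited rearrangements.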

Additional observations from a re-analysis of the deposited data

How the results depend on the processing

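Over 56 results, 290 other settings (experiments left out aside) gave 262 values with the same direction and side of the threshold, 4 weaker, 6 stronger, 1 moved count and 17 reversed. The cause of these changes was not tested. In this tally and in that with experiments left out, exact permutation results were judged by p-values before adjustment. The trimming difference of TCRBV05-01 with the block (exact permutation p = 0.00926, 0.0556 adjusted) therefore entered as passing. Among unique productive rearrangements, TCRBV05-01 in CX3CR1hi cells against the CX3CR1lo subsets passed with TMM factors (0.18, edgeR adjusted p = 0.0241), and CD8 TILs against CX3CR1hi cells passed when at least 2 templates were required (0.68, adjusted p = 4.79e-04). TCRBV02-01 in both groups together was 0.0114 with DESeq2. Among templates, DESeq2 called TCRBV05-01 in CX3CR1hi cells (1.51) and in both groups together (1.04, adjusted p = 0.0310), and exact permutation passed for TCRBV02-01 in both together (−1.24 percentage points). TCRBV02-01 in CD8 TILs against CX3CR1hi cells, near 0 throughout, was −0.0453 with TMM factors, −0.0085 without the replicate block, −0.0149 with at least 2 templates, and −0.0715 without the largest TCRBV05-01 clone of experiment B, an alternative chosen after seeing the data. Between the CX3CR1lo subsets it was −0.0415 with at least 2 templates.

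Requiring at least 2 templates also gave 0.17 for out-of-frame TCRBV05-01 between the CX3CR1lo subsets and −0.51 for out-of-frame TCRBV02-01 in both groups together (edgeR adjusted p = 0.0202). It weakened the productive to out-of-frame ratio (TCRBV02-01 −0.18, edgeR adjusted p = 0.0657, and TCRBV05-01 −0.14, adjusted p = 0.0652), reversed the difference of that ratio for TCRBV02-01 in CX3CR1hi cells (0.15) and the difference between CD8 TILs and CX3CR1hi cells among expanded clones for TCRBV05-01 (−0.0520). With a clone limit of 0.5%, TCRBV05-01 was at 0.55 among expanded clones, the differences between CD8 TILs and CX3CR1hi cells were −0.22 for TCRBV02-01 and −0.55 for TCRBV05-01, and the expanded share of TCRBV02-01 templates was 19.3 percentage points higher (exact permutation p = 0.167). Rearrangements with at least 2 templates (chosen after seeing the data) gave CDR3 length differences of 0.456 for TCRBV02-01 and 0.541 for TCRBV05-01, N insertion differences of 0.0698 and 0.110, and a trimming difference of −0.0416 for TCRBV02-01, and weighting by templates gave 0.541 for TCRBV05-01 trimming (exact permutation p = 0.0648). DESeq2 called 0 J segments for TCRBV02-01 against other V genes.

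With 1 experiment left out at a time, 168 values were 130 the same, 18 weaker, 3 stronger, 2 moved and 15 reversed. Exact permutation over 2 experiments cannot go below p = 0.0556, so its weaker calls say nothing about stability. Among unique productive rearrangements, log2 ranges for TCRBV05-01 were 0.12 to 0.22 (CX3CR1hi cells), 0.27 to 0.50 (CD8 TILs) and 0.20 to 0.36 (both), and for TCRBV02-01 −0.25 to 0.15 (CD8 TILs), −0.15 to 0.22 (CD8 TILs against CX3CR1hi cells) and −0.17 to 0.0611 (both). Among templates, TCRBV05-01 ranged over 0.28 to 1.63 (CX3CR1hi cells), −0.0809 to 0.30 (CD8 TILs), 0.29 to 0.96 (both) and −1.41 to 0.0179 (CD8 TILs against CX3CR1hi cells), and TCRBV02-01 over −0.40 to 0.53 in the last contrast. Out-of-frame, TCRBV02-01 ranged from −0.0440 to 0.0067 in CX3CR1hi cells and from −0.14 to 0.0058 between the CX3CR1lo subsets, TCRBV05-01 from −0.0141 to 0.0871 in CD8 TILs against CX3CR1hi cells, and the ratio difference of TCRBV02-01 in CX3CR1hi cells from −0.0778 to 0.0042. J segments called for TCRBV02-01 against other V genes ranged from 0 to 4. N insertion differences ranged from −0.212 to 0.109 and from −0.0557 to 0.0076, and TCRBV05-01 trimming from 0.170 to 0.358. Largest clone differences ranged from 16.7 to 29.2 percentage points (TCRBV02-01) and from 22.9 to 36.6 (TCRBV05-01), and expanded clone differences from 34.7 to 57.8 and from 62.5 to 70.2. Without the replicate block, TCRBV05-01 in CD8 TILs was at 0.36 (edgeR adjusted p = 0.0087), and the block changed no call of the edgeR fits on either gene. By adjusted p, the trimming difference of TCRBV05-01 (0.253 bases) passed without the block (exact permutation p = 0.0022, 0.0130 adjusted over 6 tests) and not with it. Depth limited CD8 TILs most, where a library held 46 to 118 unique rearrangements of either gene.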
